A study of Homo sapiens with 6 samples.

Results

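The genes described here encode 10 enzymes and cofactors that write, remove or maintain DNA methylation and repressive histone methylation: DNMT1, DNMT3A, DNMT3B, UHRF1, TET1, TET2, TET3, EZH2, HELLS and SUV39H1. They were chosen by name from the symbol column of the data, and all 10 were found among the 16305 genes that the files list. RNA-seq was done on 3 DMSO-treated and 3 fostamatinib-treated samples of sorafenib-resistant Huh7 cells (Huh7SR in the sample labels, Huh7-R in the paper). Huh7 is a human hepatocellular carcinoma line, and the resistant cells are a pool derived from it under long-term sorafenib, not a single clone. Fostamatinib is an inhibitor of the tyrosine kinase SYK, but the paper did not detect SYK protein in Huh7 cells. In its blots, at a dose and time other than here, the drug lowered phosphorylation of ERK, AKT, STAT3, EGFR and JNK. Both groups carry the label dose of 2 µM and 24 h, DMSO included, and sorafenib was withdrawn from the medium of the resistant cells some days before experiments.

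In mammalian cells, methyl groups on the cytosines of CG dinucleotides are copied to the new DNA strand after replication. UHRF1 recognises hemimethylated DNA and recruits DNMT1, the maintenance methyltransferase, while HELLS, a chromatin remodeller, opens nucleosomal DNA for this step. DNMT3A and DNMT3B place methyl groups on unmethylated DNA, and the TET dioxygenases oxidise 5-methylcytosine as a first step of demethylation. EZH2 is the catalytic subunit of Polycomb repressive complex 2 (PRC2), which methylates histone H3 at lysine 27, and SUV39H1 methylates histone H3 at lysine 9 in constitutive heterochromatin. Several of these genes are known to be transcribed mostly in cycling cells, around the time that DNA is replicated.

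The main pattern was a fall of the maintenance genes UHRF1 and HELLS and of EZH2 after fostamatinib, with smaller changes in either direction elsewhere. UHRF1 was left at 38.9% of its DMSO level, HELLS at 54.3% and EZH2 at 65.7%. DNMT1, DNMT3B and TET3 fell less, to between 77.4% and 84.2%. DNMT3A and TET2 rose, to 112% and 122% of the DMSO level. TET1 and SUV39H1 did not pass the test. With limma on all 16305 genes (two-sided, Benjamini-Hochberg adjusted p under 0.05), 8 of the 10 genes were therefore called changed, 6 lower and 2 higher, against a background of 47.8% of all genes called, 24.5% lower and 23.3% higher. The median log2 fold change of the 10 genes was -0.26, and that of all genes was 0.0015. Only UHRF1 changed by more than 2-fold, as did 8.92% of all genes. In 8 of the 10 genes the fostamatinib samples lay apart from all DMSO samples, as they did in 54.1% of all genes.

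Sequences at the starts of the 4 genes UHRF1, HELLS, EZH2 and DNMT1 are shown. A search was made for the binding motif of E2F factors, regulators of S phase genes. It was found in the start windows of these genes and in none of those used for the other 6. The windows run from 250 bases before to 50 bases after a gene start in RefSeq (GRCh38.p14), 5′ to 3′ on the strand of the gene. All 10 genes had a window. Only the first window listed for a gene was used, so any other start of it was not searched. Capitals mark TTTGGCGC, TTTCCCGC, TTTCGCGC or TTTGCCGC on either strand. UHRF1 is read from chr19:4909251-4909550 on the + strand, HELLS from chr10:94545538-94545837 on the + strand, EZH2 from chr7:148884242-148884541 on the - strand and DNMT1 from chr19:10194904-10195203 on the - strand.
UHRF1: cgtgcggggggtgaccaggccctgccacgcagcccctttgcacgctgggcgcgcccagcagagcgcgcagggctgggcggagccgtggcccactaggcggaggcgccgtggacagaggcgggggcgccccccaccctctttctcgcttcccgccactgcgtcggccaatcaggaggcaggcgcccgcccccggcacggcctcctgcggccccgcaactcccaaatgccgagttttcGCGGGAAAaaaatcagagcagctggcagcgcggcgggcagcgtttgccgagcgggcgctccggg
HELLS: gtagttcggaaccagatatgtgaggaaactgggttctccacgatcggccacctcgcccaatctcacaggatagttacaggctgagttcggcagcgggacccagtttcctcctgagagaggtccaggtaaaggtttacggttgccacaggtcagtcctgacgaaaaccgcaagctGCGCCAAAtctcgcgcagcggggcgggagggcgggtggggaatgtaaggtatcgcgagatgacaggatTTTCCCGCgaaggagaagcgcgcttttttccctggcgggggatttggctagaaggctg
EZH2: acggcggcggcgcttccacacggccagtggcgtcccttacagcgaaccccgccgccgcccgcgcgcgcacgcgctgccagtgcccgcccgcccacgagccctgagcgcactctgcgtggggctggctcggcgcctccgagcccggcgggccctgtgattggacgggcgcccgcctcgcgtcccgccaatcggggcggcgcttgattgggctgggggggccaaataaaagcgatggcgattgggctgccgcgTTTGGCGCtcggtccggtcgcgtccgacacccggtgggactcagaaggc
DNMT1: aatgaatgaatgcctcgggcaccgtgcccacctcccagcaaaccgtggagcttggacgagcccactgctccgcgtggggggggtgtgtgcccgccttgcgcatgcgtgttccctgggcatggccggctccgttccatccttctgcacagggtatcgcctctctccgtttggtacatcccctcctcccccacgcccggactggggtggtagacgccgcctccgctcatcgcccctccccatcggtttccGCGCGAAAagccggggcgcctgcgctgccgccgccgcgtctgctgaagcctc

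Each of the 4 windows held the motif within 14 bases of the start. Its leftmost base lay 14 bases before the start in UHRF1, 8 and 76 bases before it in HELLS, 2 bases before it in DNMT1, and at base 2 after it in EZH2. It was present in 3.32% of all 35116 windows, which were not cut to a single window per gene. With a single window per gene, it was present in 5.23% of the 10466 windows of genes that the files list. Among the S phase genes described below it was present in 11 of 20 windows. For the G2 and mitosis genes, of which more rose than fell, it was present in 2 of 16 windows (12.5%). A match of letters describes the window and is not a measured binding site. The CCAAT letters were found on either strand in the windows of 4 of the 10 genes, against 34.6% of all windows, and GGGCGG in 5 of the 10, against 45.0%. CG dinucleotides, where the DNA methyltransferases act, had a median number of 14 over all windows. The windows of EZH2 (46), TET3 (45), UHRF1 (36), DNMT1 (30), DNMT3A (26) and HELLS (22) held more. Those of TET2 (13), TET1 (10), SUV39H1 (7) and DNMT3B (3) held fewer. The windows were not matched to the main start of each gene. A low count or a missing motif therefore describes the window used and not the gene. That of DNMT3B lies at chr20:32779602-32779901 on the + strand, and whether this is its main start was not checked.

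UHRF1 (ENSG00000276043) spans bases 4903092 to 4962165 of chromosome 19 (GRCh37, + strand), and gene positions that follow use the same build. Its reads numbered 636, 701 and 628 with DMSO and 238, 258 and 222 with fostamatinib. On the scale of the deposited values, log2 CPM (the log2 of counts scaled to library size as CPM, with 0.5 added to each count), these were 5.53, 5.52 and 5.40 against 4.12, 4.18 and 4.07. Every fostamatinib sample was more than 1 log2 unit below every DMSO sample, while samples of a group differed by at most 0.13. The mean fell from 5.48 ± 0.0715 (SD, n = 3) to 4.12 ± 0.0559 (SD, n = 3). The log2 fold change came to -1.36 ± 0.0715 (SE), with an adjusted p of 8.74e-18 in limma. Of all genes, 2.10% had a lower log2 fold change.

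HELLS (ENSG00000119969), on chromosome 10 from 96305086 to 96373662 on the + strand, was covered by 349, 353 and 509 reads with DMSO and by 201, 223 and 186 with fostamatinib. Its log2 CPM were 4.66, 4.53 and 5.10 against 3.87, 3.97 and 3.81. The groups did not overlap, but DMSO sample 3 stood 0.43 above the next DMSO sample. A gap of this size or more in DMSO sample 3 was seen in 11 of 10312 genes averaging 100 reads or more, against 9 for DMSO sample 1 and 6 for DMSO sample 2. The log2 fold change of HELLS came to -0.88 ± 0.0999 (SE), with an adjusted p of 3.28e-09 in limma, over all samples and to -0.71 (adjusted p = 5.58e-08) without DMSO sample 3.

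DNMT1 (ENSG00000130816), on chromosome 19 from 10244018 to 10341962 on the - strand, had the most reads of the 10 genes. These were 1755, 2025 and 1932 with DMSO and 1444, 1568 and 1417 with fostamatinib, or 6.99, 7.05 and 7.02 log2 CPM against 6.71, 6.78 and 6.74. The groups lay apart by more than the spread within either, but the step was small. The log2 fold change of -0.28 ± 0.0448 (SE) had an adjusted p of 3.08e-06 in limma, and 24.2% of all genes had a lower one. The fall of UHRF1 was thus the larger of this pair: the log2 ratio of UHRF1 to DNMT1 went from -1.54 ± 0.0787 (SD, n = 3) to -2.62 ± 0.0414 (SD, n = 3), a difference of -1.09.

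**Figure D1:**
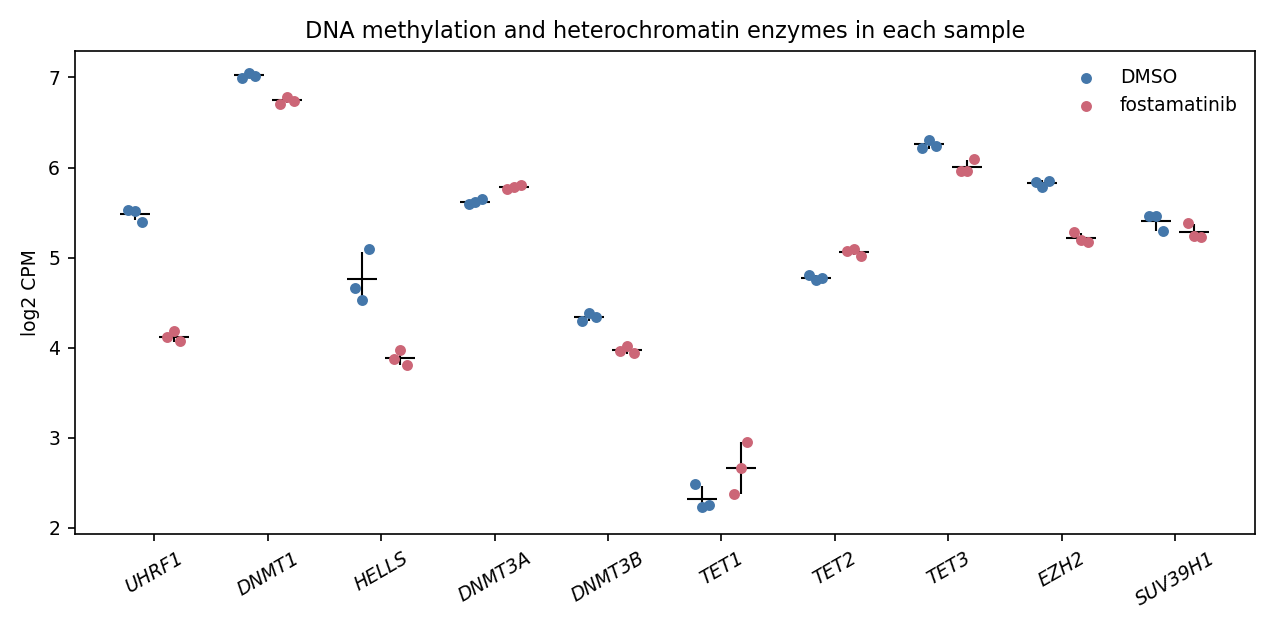
Log2 CPM (vertical axis) of each of the 10 genes in the 3 DMSO samples (blue) and the 3 fostamatinib samples (red), with horizontal ticks for group means and vertical bars for 1 SD. The groups of UHRF1, HELLS and EZH2 stand clearly apart, DMSO sample 3 of HELLS lies high at 5.10, and those of TET1 and SUV39H1 overlap.

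The de novo methyltransferases moved in opposite directions. DNMT3A (ENSG00000119772), on chromosome 2 from 25450724 to 25565459 on the - strand, had 5.59, 5.62 and 5.65 log2 CPM with DMSO and 5.76, 5.78 and 5.81 with fostamatinib. All 3 fostamatinib samples were slightly higher, and the log2 fold change of 0.17 ± 0.0558 (SE) had an adjusted p of 0.0132 in limma. This call was lost without DMSO sample 1 (0.15, adjusted p = 0.0553) and without fostamatinib sample 3 (0.15, adjusted p = 0.0556). DNMT3B (ENSG00000088305), on chromosome 20 from 31350191 to 31397165 on the + strand, had 4.30, 4.39 and 4.34 log2 CPM with DMSO and 3.96, 4.02 and 3.94 with fostamatinib. Here all 3 fostamatinib samples were lower, and the log2 fold change of -0.37 ± 0.0841 (SE) had an adjusted p of 3.96e-04 in limma. The log2 ratio of DNMT3B to DNMT3A fell by 0.54, from -1.28 ± 0.0440 (SD, n = 3) to -1.81 ± 0.0526 (SD, n = 3).

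Among the TET genes, TET2 rose and TET3 fell. TET2 (ENSG00000168769), on chromosome 4 from 106067032 to 106200973 on the + strand, had 4.81, 4.75 and 4.77 log2 CPM with DMSO and 5.07, 5.10 and 5.02 with fostamatinib. The groups did not overlap, and the log2 fold change of 0.29 ± 0.0678 (SE) had an adjusted p of 5.32e-04 in limma. TET3 (ENSG00000187605), on chromosome 2 from 74212037 to 74335303 on the + strand, had 6.22, 6.31 and 6.24 log2 CPM against 5.96, 5.96 and 6.10. Its fostamatinib samples were all lower, with sample 3 nearest to the DMSO group, and the log2 fold change of -0.25 ± 0.0537 (SE) had an adjusted p of 2.03e-04 in limma. The log2 ratio of TET3 to TET2 changed from 1.48 ± 0.0716 (SD, n = 3) to 0.94 ± 0.118 (SD, n = 3).

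TET1 (ENSG00000138336), on chromosome 10 from 70320094 to 70454244 on the + strand, had the fewest reads of the 10 genes, namely 77, 71 and 70 with DMSO and 71, 90 and 102 with fostamatinib. The groups overlapped, since fostamatinib sample 1 lay below DMSO sample 1. The log2 fold change of 0.34 had a 95% interval from 0.03 to 0.66 and did not pass the adjustment over all genes (adjusted p = 0.0681 from limma). It passed without DMSO sample 1 (0.43, adjusted p = 0.0436) or without fostamatinib sample 1 (0.49, adjusted p = 0.0164), and was 0.20 (adjusted p = 0.370) without fostamatinib sample 3. At about 70 to 100 reads per sample a change of this size was not resolved.

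EZH2 (ENSG00000106462), on chromosome 7 from 148504349 to 148581413 on the - strand, was covered by 789, 839 and 855 reads with DMSO and by 533, 524 and 478 with fostamatinib. Its log2 CPM were 5.84, 5.78 and 5.85 against 5.28, 5.20 and 5.17. The 3 fostamatinib samples lay well below all DMSO samples, and the log2 fold change of -0.61 ± 0.0591 (SE) had an adjusted p of 1.05e-10 in limma. SUV39H1 (ENSG00000101945), on chromosome X from 48553945 to 48567407 on the + strand, had 5.46, 5.46 and 5.29 log2 CPM with DMSO and 5.38, 5.24 and 5.23 with fostamatinib. Its groups overlapped, and the log2 fold change of -0.12 (95% interval -0.25 to 0.01, adjusted p = 0.137 from limma) did not pass. It passed only when DMSO sample 3 was left out (-0.18, adjusted p = 0.0228).

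**Figure D2:**
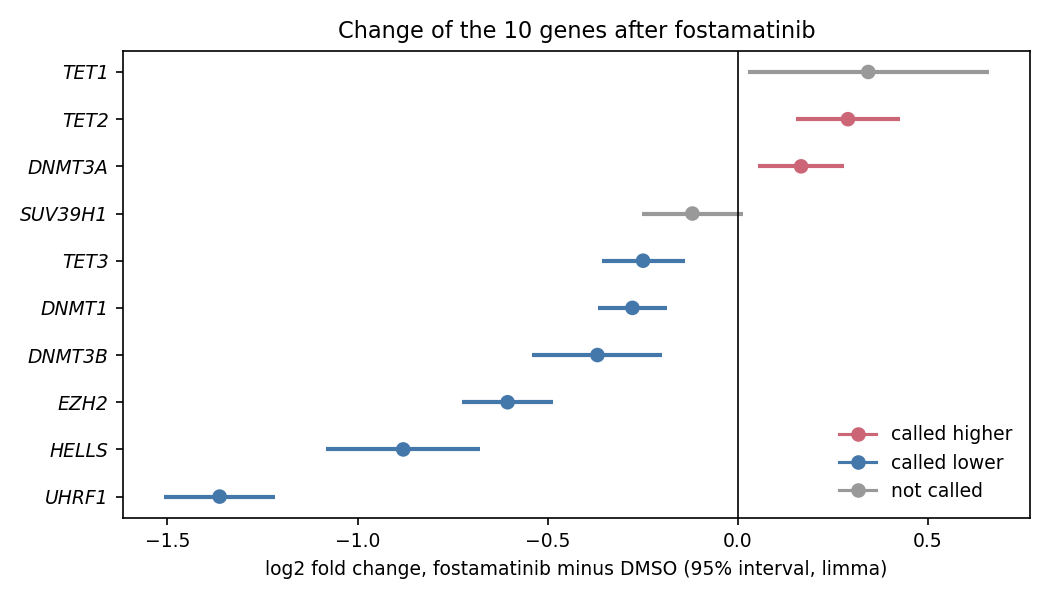
Log2 fold change of each of the 10 genes, fostamatinib minus DMSO (horizontal axis), with the 95% interval of limma before adjustment as bars, in blue for genes called lower, red for genes called higher and grey for genes not called. UHRF1 (-1.36) lies farthest from 0, and TET1 (0.34) has the widest interval, which excludes 0 although its adjusted p of 0.0681 missed the threshold.

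These small adjusted p-values rest on limma's sharing of the spread between genes of like expression. Without the mean-variance trend the same 8 genes had adjusted p-values under 0.05, from 2.20e-04 for UHRF1 to 0.0301 for DNMT3A. Neither the labels nor the paper say whether the 3 samples of a group came from separate cultures, so the p-values may measure only technical spread.

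**Figure D3:**
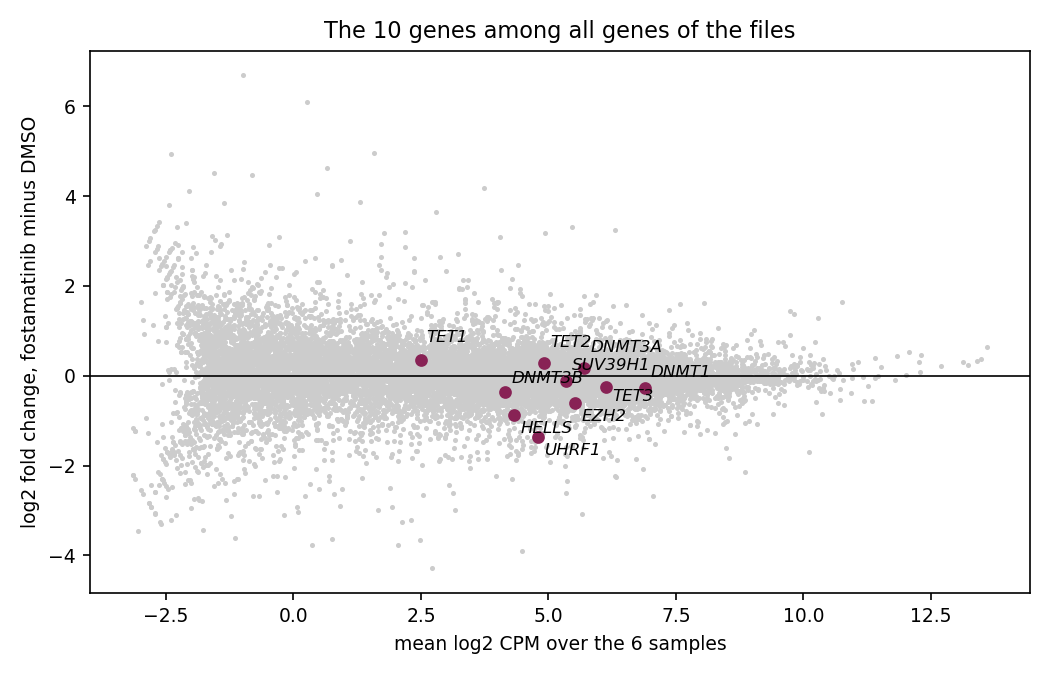
Log2 fold change, fostamatinib minus DMSO (vertical axis), against mean log2 CPM over the 6 samples (horizontal axis) for all 16305 genes (grey), with the 10 genes in purple. Of all genes, 2.10% lie below UHRF1 and 5.26% below HELLS.

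Levels of different genes can be compared only per length, here as RPKM (reads per kilobase, scaled to library size) in the DMSO samples. Per kilobase of all merged exons of a gene, SUV39H1 was highest at 13.1 ± 0.908 (SD, n = 3), followed by UHRF1 at 8.71 ± 0.426 and DNMT1 at 8.46 ± 0.173, whose ranges overlapped. Next came TET3 at 5.90 ± 0.187, EZH2 at 5.26 ± 0.130, DNMT3A at 3.57 ± 0.0733 and DNMT3B at 2.95 ± 0.0901, each apart from its neighbours. HELLS at 1.94 ± 0.414 and TET2 at 1.66 ± 0.0335 overlapped, and TET1 was lowest at 0.522 ± 0.0547. Merged exons include those of rare transcripts, 14.2 kb for HELLS against 3.13 kb for its reference (MANE Select) transcript. Per kilobase of that transcript, a scale added after the data were seen, DNMT1 at 24.7 and EZH2 at 21.3 came first, SUV39H1 (15.5) and UHRF1 (11.5) followed, and TET2 (2.85) and TET1 (0.522) stayed lowest. The order at the top therefore depended on the gene model, while UHRF1 went from place 4 to place 7 after fostamatinib on this scale, at 4.47 ± 0.174.

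The relatives of these genes did not all move with them. UHRF2, the paralogue of UHRF1, fell by 0.26 on the log2 scale (adjusted p = 4.05e-03 from limma), so that the log2 ratio of UHRF1 to UHRF2 changed from 0.64 ± 0.108 (SD, n = 3) to -0.47 ± 0.0495 (SD, n = 3). EZH1, the other catalytic subunit of PRC2, rose from 199, 227 and 181 reads to 258, 300 and 305 (log2 fold change 0.60, adjusted p = 2.35e-06), and the log2 ratio of EZH2 to EZH1 changed from 2.04 ± 0.182 to 0.83 ± 0.201 (SD, n = 3 each). SUV39H2, the paralogue of SUV39H1, fell with a log2 fold change of -0.47 (adjusted p = 3.42e-06), although SUV39H1 itself was not called. Their ratio overlapped between the groups, at 0.62, 0.45 and 0.26 on the log2 scale with DMSO and at 0.94, 0.85 and 0.60 with fostamatinib. CDCA7, the DNA-binding partner of HELLS, fell with a log2 fold change of -1.26 (adjusted p = 1.35e-15).

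In all, 9 pairs of related genes were compared, and in 7 of them the ratios of the fostamatinib samples lay apart from those of the DMSO samples. For each of the 7 the exact permutation test (two-sided) gave p = 0.10, the smallest that 3 against 3 samples allow, and 0.129 after Benjamini-Hochberg adjustment over the pairs, so none passed. The ratio of HELLS to CDCA7 was apart by a narrow margin, since DMSO sample 3 reached 0.00 against 0.04 for the lowest fostamatinib sample. The ratio of TET1 to TET2 overlapped, with a difference of 0.05 (exact permutation p = 0.80).

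**Figure D4:**
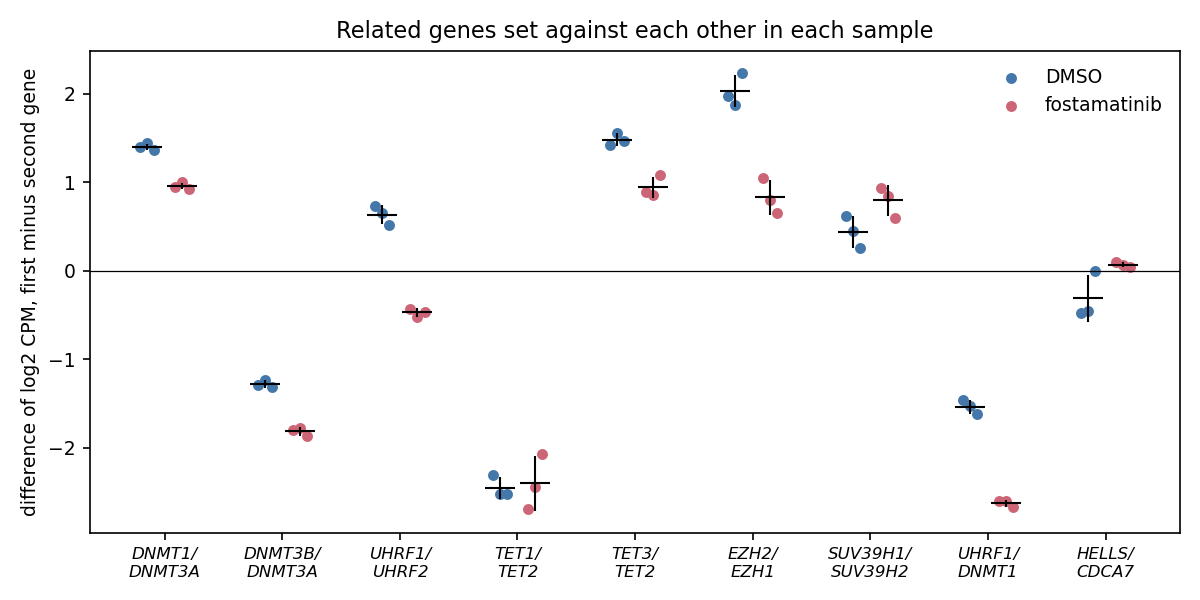
Difference of log2 CPM between the first and the second gene of 9 pairs (vertical axis, 0 where both have equal CPM, not corrected for gene length), per sample, in blue for DMSO and red for fostamatinib, with ticks for group means and bars for 1 SD. The ratios of UHRF1 to UHRF2 and to DNMT1 and of EZH2 to EZH1 moved by more than 1 log2 unit, those of TET1 to TET2 and SUV39H1 to SUV39H2 overlap.

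For the gene lists from here on, the background over all genes was 24.5% called lower and 23.3% called higher. Of the partners and readers of DNA methylation, 19 of 21 listed genes were in the files, 6 called lower and 7 higher, with a median log2 fold change of -0.04. The falls were led by CDCA7, by PCNA, the sliding clamp that brings DNMT1 to replication forks (-1.18, adjusted p = 1.68e-20), and by CDCA7L, a paralogue of CDCA7 (adjusted p = 6.38e-14). The rises were led by CXXC4 (0.73), DMAP1, a DNMT1-binding protein (0.70), and ZBTB38, a reader of methylated DNA (0.55). The readers MBD1 (-0.04), MBD3 (-0.10) and ZBTB33 (-0.07) did not pass, nor did TDG (-0.07), the glycosylase that removes oxidised methylcytosine.

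Genes of PRC2 and of lysine 9 methylation changed in both directions, as all genes together did. Of 12 PRC2 subunits 4 were called lower and 4 higher (median -0.03), among them the core subunit SUZ12 (-0.30), EPOP, listed under its older symbol C17orf96 (-1.05), PHF1 (0.42) and JARID2 (0.33). Falls outnumbered rises among 20 genes of PRC1, the complex that ubiquitinates histone H2A. Of these, 7 (35%) were called lower and 1 (5%), PHC3 (0.19), higher, with a median of -0.15. The groups of PHC3 overlapped, and its call was lost without fostamatinib sample 2 or 3. CBX2 fell from a mean of 51 to 18 reads (-1.41, adjusted p = 6.86e-06), PCGF6 by 0.70 and PHC2 by 0.67 on the log2 scale. Of 19 genes of lysine 9 methylation and its HP1 readers, 6 were called in each direction (median -0.05), and the 3 HP1 genes were themselves split, with CBX1 (-0.36) and CBX3 (-0.30) lower and CBX5 (0.28) higher. Without fostamatinib sample 2 the count higher was 3, here and among 13 demethylases of lysines 9 and 27, of which 3 were called lower and 5 higher, the largest change being the fall of KDM7A (-0.79). None of the 3 methyltransferases of histone H4 lysine 20 was called by limma, and 1 of them, SETD8 (-0.14), had an unadjusted p under 0.05 (0.0293), becoming called without the trend or with library size alone.

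The methyl donor of the DNA and histone methyltransferases is S-adenosylmethionine. Of 12 genes of its cycle 10 were in the files, 3 called lower and 3 higher. MTRR (-0.55), ADK (-0.37) and AHCY, which clears the inhibitory product S-adenosylhomocysteine (-0.23), fell, and AHCYL2 (0.50) and MAT2B (0.26) were among those that rose. MAT2A, which makes the donor in non-hepatic and tumour cells, was at -0.06 and did not pass.

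Genes of S phase moved with the members that fell. Of 23 S phase and replication genes, 22 were called lower and none higher, with a median log2 fold change of -0.87 and a range from -1.79 to -0.02. The 3 largest falls were those of GINS2, a subunit of the replicative helicase (-1.79), CCNE2, cyclin E2 (-1.77), and MCM5, another helicase subunit (-1.55). The summed CPM of the list was 2047 to 2056 in the DMSO samples and 1087 to 1147 after fostamatinib. Of 20 genes of G2 and mitosis, 11 were called higher and 3 lower, with a median of 0.10, and their summed CPM was 3753 to 3836 against 4299 to 4384. AURKA (0.77) and KIF20A (0.53) were among those that rose, and MKI67 (0.04) did not pass. Whether the changes of UHRF1, HELLS, EZH2 and DNMT1 follow a smaller share of cells in S phase was not tested, and in these bulk samples fewer such cells and less RNA per cell cannot be told apart.

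**Figure D5:**
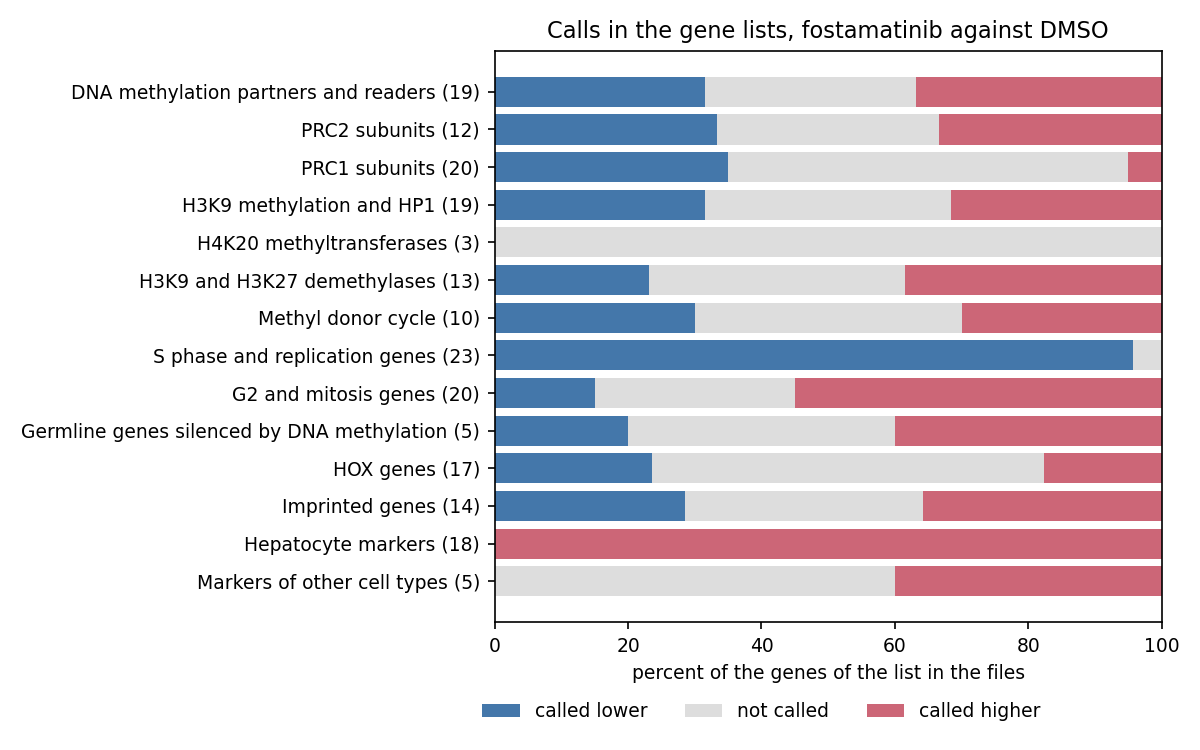
Percent of the genes of each list (number in the files in parentheses) called lower (blue), not called (grey) and called higher (red) by limma at an adjusted p under 0.05. The S phase list is nearly all blue (22 of 23), the hepatocyte list all red (18 of 18), and the lists of chromatin genes hold both colours apart from the 3 methyltransferases of histone H4 lysine 20.

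Genes whose silencing depends on these marks in other settings showed no common direction among those listed in the files. Of 27 germline genes that are silenced by DNA methylation in somatic cells, 5 were listed in the files. The other 22 were not listed, and genes with few reads had been removed from the files. STK31 rose from a mean of 9 to 25 reads (1.51, adjusted p = 1.94e-04 from limma) and BRDT from 832.7 to 946.7 (0.28). MAGEB2 fell from 890.3 to 629 (-0.41), and MAGEC2 and RPL10L did not pass. BRDT and MAGEB2 were thus not silent with DMSO, so they could not show a release from silence. Of 39 HOX genes, classic targets of Polycomb silencing, 17 were in the files, 3 called higher and 4 lower. With each sample left out in turn, 2 to 3 of them were called lower (2 without fostamatinib sample 2). HOXA5 (1.23), HOXC10 (0.73) and HOXA3 (0.65) rose, and HOXA11 (-0.57) fell. Of 25 imprinted genes 14 were in the files, 5 called higher and 4 lower, with PEG10 (0.78) and KCNQ1OT1 (0.54) higher and PHLDA2 (-1.12) and MEST (-0.58) lower. DNA methylation and histone marks were not measured in these samples.

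The genes whose profile over the 6 samples was most like that of UHRF1, among 10004 genes with a mean log2 CPM of at least 3, were EIF4EBP1, PTGS2 and TRIB3, at Euclidean distances of 0.0966, 0.110 and 0.121 after subtraction of the DMSO mean. Those most like TET2, the gene with the largest called rise among the 10, were TIMM29, WDR11 and BET1L, at 0.0480, 0.0481 and 0.0532.

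The depth on the listed genes was 13303451 to 15272737 reads per sample, from polyA-selected RNA. All 18 hepatocyte markers were in the files and all 18 were called higher after fostamatinib, with a summed CPM of 6611 to 7080 in the DMSO samples and 9922 to 10499 after it. AFP and ALB, which mark hepatoma cells of this line, had means of 28003.7 and 9338 reads in the DMSO samples. Of 17 markers of blood, vessel, stromal and squamous cells 5 were listed, 2 called higher and 0 lower, with a summed CPM of 24.3 to 27.1 with DMSO and 30.2 to 33.4 with fostamatinib. PDGFRB, a receptor of pericytes and fibroblasts, rose from a mean of 32 to 58 reads (0.95, adjusted p = 1.41e-04), and PECAM1, an endothelial adhesion molecule, from 94.7 to 127 reads (0.51, adjusted p = 8.37e-04). COL3A1 (0.68), COL1A1 (0.18) and LYZ (0.01) did not pass. The other 12, among them PTPRC, CD3E, CD68, VWF, CDH5, ACTA2, DCN, KRT5 and KRT14, were not among the genes listed. The part of the hepatocyte and other markers in the results was not tested. Other annotated genes share the span of 9 of the 10 genes, among them S1PR2 on the strand of DNMT1 and antisense RNAs opposite TET2 and SUV39H1, and whether strand was used in the counting is not given in the sources used here.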

How the data were processed

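Poly(A) RNA of 3 DMSO-treated and 3 fostamatinib-treated Huh7-R samples was sequenced; groups and replicate numbers come from the sample titles. According to the methods and labels, the authors used HISAT (hg19) for mapping and featureCounts with GENCODE v.22 for counting, removed genes under 5 reads in at least 2 of 3 samples of each group, and applied TMM normalization. The deposited values are log2 CPM with 0.5 added to each count, 1 file per sample. A repeated ribosomal RNA gene was kept a single time. Whole reads were recovered from the values (100% within 0.05 of a whole number) and served for depth, other scalings and lengths.

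limma 3.58.1 in R 4.3.3 (lmFit, eBayes with trend, treatment as the only term) was run across all 16305 genes. The median total degrees of freedom was 33.9, against 4 residual, and the script was tested on simulated data. The members and gene lists were chosen with earlier results of these data known. Genes named from a list were the up to 3 called genes with the largest change in each direction with a mean of at least 20 reads in a group, plus paralogues; CBX3, AFP, ALB and genes given as not passing were chosen after their values were seen. A gene that this rule selects is not reported here. Coordinates and exon lengths are from GENCODE 44 mapped to GRCh37 (98.7% of identifiers found), and start windows from RefSeq. Precision is set by the 3 samples per group and by reads per gene. Alternatives tried were a replicate block, limma-voom, no trend, other scalings, a pseudocount of 2, 2 stricter filters, a stricter threshold and the omission of each sample.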

Additional observations from a re-analysis of the deposited data

How the results depend on the processing

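All 10 genes kept their direction in every alternative run. With the replicate block the genes called changed numbered 7977, with 2 members higher and 6 lower; deviations of same-numbered samples correlated at 0.0595, -0.0645 and 0.0572, so the numbers were not taken as pairs. A threshold of 1 expected false positive left 4136 genes called changed, with 0 members higher and 5 lower; DNMT3A (0.17), DNMT3B (-0.37) and TET2 (0.29) then did not pass. With each sample left out in turn, 1 to 3 members were called higher and 6 to 7 lower; log2 fold changes ranged from 0.15 to 0.18 for DNMT3A, 0.20 to 0.49 for TET1 and -0.18 to -0.089 for SUV39H1, the 3 genes whose call changed. The single PRC1 gene called higher became 0 to 3 in other settings. Without the trend 6 G2 and mitosis genes were called higher and 0 lower, and with the stricter threshold 7 and 0; that threshold also left 3 and 3 methylation partners, 2 and 2 PRC2 genes, 2 and 3 lysine 9 genes and 2 and 1 demethylases (higher and lower). Of the pair ratios, 63 of 63 alternative values stayed within 1 SD of the value reported. Leaving out 1 of 3 samples cannot move a ratio that far, so for those settings the count is no check. The difference of TET1 to TET2 ran from -0.11 to 0.20 with a sample left out. Other scalings left the median log2 fold change of all genes between -0.0096 and 0.0052. With 3 samples per group and about 70 to 100 reads, the change of TET1 is the least precise.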
